A study of Mus musculus with 15 samples.

Results

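The genes described here are 10 genes of the actin cytoskeleton, the thymosins Tmsb10 and Tmsb4x, the actins Actb and Actg1, and the actin-binding proteins Pfn1, Cfl1, Capg, Arpc1b, Coro1a and Actn1. They were picked by symbol, and all 10 were found among the 17594 genes of the deposited table. RNA was sequenced from spleen T cells of C57BL/6 mice, sorted into regulatory T cells (Treg) and conventional CD4+ T cells (Tconv). In the knockout group (KO) a conditional allele of Hpgd, the gene of a prostaglandin-degrading enzyme, was combined with a Foxp3-Cre-YFP driver. Controls bear the label wild-type (WT). Treg WT, Treg KO and Tconv KO had 4 libraries each, and Tconv WT had 3. Foxp3 drives the Cre in Treg, so the Tconv of the KO animals are cells in which the driver is not expected to be active. The labels do not give the age of the animals, which samples share an animal, or whether the controls carried the driver.

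Actin exists as monomers and as filaments, and T cells rebuild their filament network when they crawl, adhere to other cells and form a synapse with an antigen-presenting cell. Beta-thymosins hold monomers in reserve and profilin passes them to growing filament ends. Cofilin cuts old filaments, capping proteins close the growing ends, the Arp2/3 complex makes branches, and alpha-actinins link filaments to each other.

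The libraries held 2.64 to 11.1 mega-reads assigned to genes. Means were 8.35 for Treg WT and 3.89 for Treg KO, 8.77 for Tconv WT and 5.40 for Tconv KO, so the KO groups were shallower on average, although 1 Tconv KO library reached 10.3. Foxp3 ranged from 3314 to 4800 normalized read counts in the 8 Treg libraries and from 14.4 to 69.5 in the 7 Tconv libraries. Hpgd had 0 reads in 14 of 15 libraries and 1 read in the other, so its loss was not detectable at this depth. A count of 0 allows up to 3 reads, or 1.58 to 6.46 normalized counts depending on the library. Xist was at most 5.52 in the 7 WT libraries and at least 8644 in the 8 KO libraries, and Ddx3y had 0 reads in all KO libraries. Sex and genotype therefore cannot be told apart, and neither can genotype and sample numbering, which runs from 483 to 490 in WT and from 574 to 581 in KO. The 6 B cell markers summed to 76.2 to 105 in Treg WT, 126 to 172 in Treg KO and at most 22.7 in Tconv, and the 6 myeloid markers summed to at most 29.6 in any library. The 6 markers of CD8 T and NK cells summed to 151 to 181 in Treg WT, 186 to 261 in Treg KO, 555 to 698 in Tconv WT and 472 to 1765 in Tconv KO. These sums rested on Cd8b1, Klrb1c, Eomes and Nkg7, while Cd8a had group means of 0.70 to 1.62 and Ncr1 of at most 0.18. The part of the B cell, myeloid, CD8 T and NK cell markers in the results was not tested. The first Tconv KO library stood apart in some marker genes. Ikzf2 was at 3195 against 366 to 1215 in the other Tconv KO libraries, and Eomes at 778 against 92.8 to 404. Nkg7 was at 914 against 214 to 462, and Ctla4 at 764 against 188 to 434. Foxp3, at 47.2, lay within the 18.9 to 69.5 of the others. Klrb1c (19.2 against 57.2 to 82.8), Cd8b1 (54.2 against 57.0 to 81.7) and Il2ra (55.9 against 57.2 to 69.5) were lowest there. In that library Klrb1c rested on 11 reads, Cd8b1 on 31 and Il2ra on 32, and Cd8b1 and Il2ra lay close to the next library. Whether the Treg, CD8 T or NK cell markers shifted there as sets was not tested.

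Thymosin beta-10 and thymosin beta-4 are small paralogous proteins with similar roles, and their transcripts had different profiles over these samples. Their coding sequences are shown because reads from the coding part of the 2 genes can be told apart only where these bases differ. Each has 132 bases without the stop codon (44 codons) on the GRCm38 assembly, also called mm10. Of these, 92 bases are identical at the same position and 40 differ, an identity of 69.7%. Capitals mark the differing bases, written 5′ to 3′.
Tmsb4x: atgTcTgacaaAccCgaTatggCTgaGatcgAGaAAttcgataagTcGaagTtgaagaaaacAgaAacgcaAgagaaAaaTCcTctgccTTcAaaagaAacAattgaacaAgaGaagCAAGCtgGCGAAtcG
Tmsb10: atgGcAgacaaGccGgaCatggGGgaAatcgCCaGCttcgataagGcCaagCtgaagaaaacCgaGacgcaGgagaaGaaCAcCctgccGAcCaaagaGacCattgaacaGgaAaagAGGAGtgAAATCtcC
Tmsb4x (ENSMUSG00000049775.16) lies on the minus strand of chromosome X, from 167207093 to 167209315, and its coding bases fall in exons between 167207504 and 167208036. Tmsb10 (ENSMUSG00000079523.8) lies on the minus strand of chromosome 6, from 72957347 to 72958748, with its coding bases between 72957621 and 72958012. Both transcripts are short, 768 bases for Tmsb4x and 570 bases for Tmsb10. The sources used here do not say how the authors treated reads that match several genes, so levels of genes with close copies, such as the actins, carry that uncertainty. Between the 2 thymosins the 40 differing bases are spread along the whole coding part. How many reads match both was not tested.

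All 10 genes had a mean difference below 0 between Treg KO and Treg WT, and Tmsb10 had by far the largest. The next were Pfn1, Coro1a and Cfl1, while Actg1 was nearly level and turned to 0.02 without the third Treg KO library. That library, the shallowest of the 15, was the lowest of the 4 Treg KO libraries for 8 of the 10 genes. Values below are normalized read counts, that is, reads divided by the scaling factor of each library, with mean ± SD over libraries. Differences are on the scale of log2(value + 1), ± SE from a model over all 15 libraries. The genes were chosen with results of these data in view, so their differences are given as a description and without p-values.

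Tmsb10, the thymosin with the lower level of the pair, stood at 2299, 2164, 2695 and 2580 in the 4 Treg WT libraries. In the 4 Treg KO libraries it stood at 530, 536, 384 and 487. The groups lay far apart, and every KO library was below every WT library. The means were 2434 ± 245 (n = 4) and 484 ± 70.5 (n = 4), 5.03-fold lower in KO, with a log2 difference of -2.34 ± 0.14. Behind the KO values stood 178 to 442 reads per library, and behind the WT values 2910 to 4633. Of the 11314 genes kept for the fit, 21 had a lower difference than Tmsb10.

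In Tconv the same gene was at 2846, 2694 and 2805 in WT and at 1797, 1512, 2413 and 1444 in KO. The groups again did not overlap, but the KO libraries spread widely and the third came close to WT. The means were 2782 ± 78.7 (n = 3) and 1792 ± 442 (n = 4), a log2 difference of -0.66 ± 0.15. The genotype difference of Tmsb10 in Treg minus that in Tconv was -1.67 ± 0.21. In WT animals the cell types were close, with overlapping groups and a Treg minus Tconv difference of -0.20 ± 0.15. In KO animals Treg had 3.70-fold less, at -1.87 ± 0.14.

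Tmsb4x, the more abundant thymosin and an X-linked gene, was at 16292, 16497, 14880 and 18192 in Treg WT and at 12208, 12835, 14412 and 13587 in Treg KO. The highest KO library lay just under the lowest WT library, so the groups did not overlap. The difference of -0.31 ± 0.08 corresponds to means of 16465 ± 1357 and 13261 ± 952. In Tconv it ranged from 15525 to 16961 in WT and from 15225 to 16157 in KO, overlapping ranges with a difference of -0.08 ± 0.09. Since KO libraries come from female and WT libraries from male cells, the dosage of an X-linked gene cannot be told apart from genotype here.

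Within each library the balance of the pair can be read per length, as the Tmsb10 level per kilobase (kb) in percent of the Tmsb4x level per kb. It was 19.0, 17.7, 24.4 and 19.1% in Treg WT and 5.84, 5.63, 3.59 and 4.83% in Treg KO. It was 22.7, 21.4 and 24.3% in Tconv WT and 15.9, 12.6, 21.3 and 12.3% in Tconv KO. The ratio does not depend on the scaling between libraries, and its ranges in Treg KO and in every other group lay apart.

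**Figure D1:**
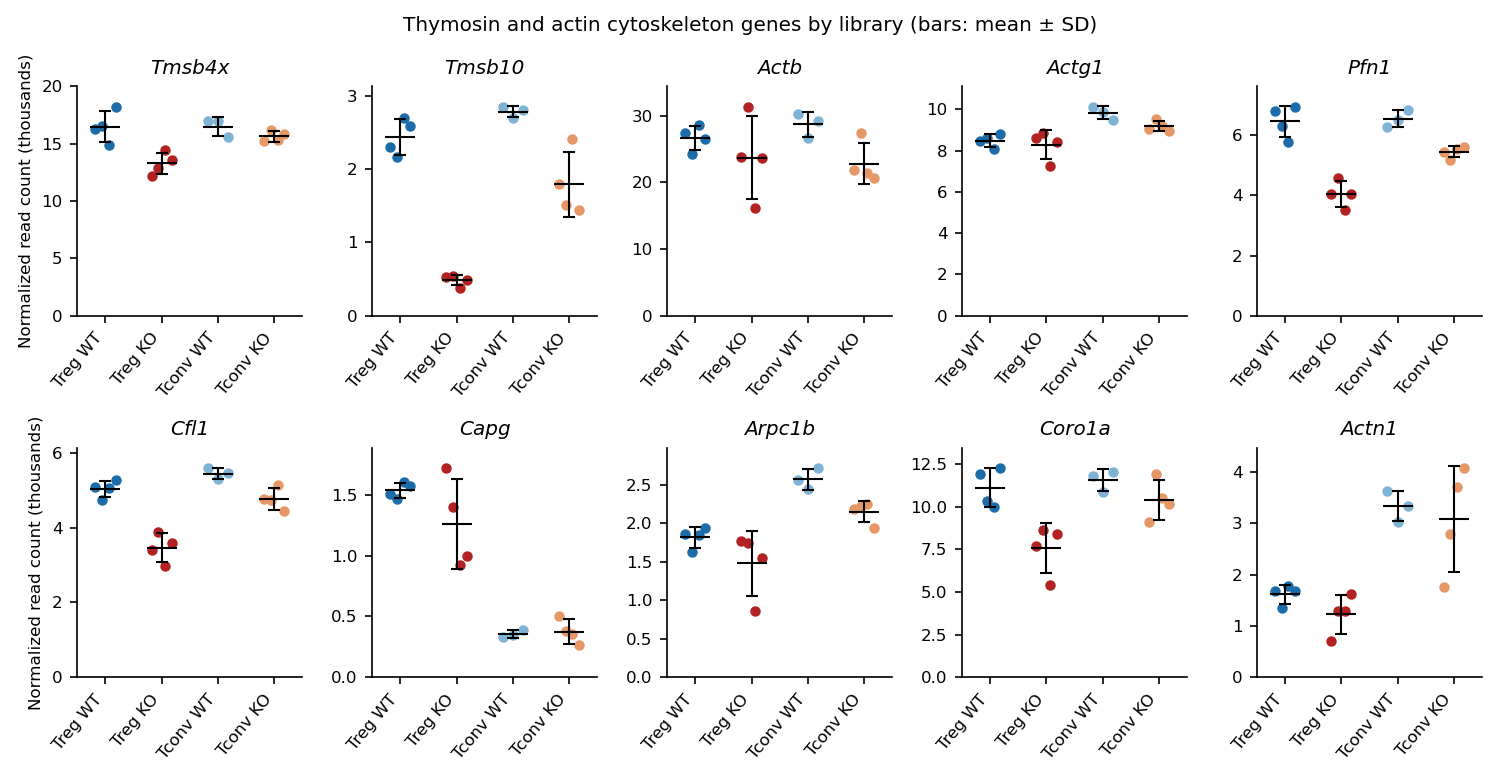
Normalized read counts, divided by 1000, of the 10 genes in each library (points), with the mean and SD of each group (bars), for Treg and Tconv of both genotypes. Tmsb10 sits between 384 and 536 in the 4 Treg KO libraries, below all other libraries, and Capg is at 922 or more in all Treg libraries and at 505 or less in all Tconv libraries.

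Tmsb10 has a short transcript of high GC content (57.4%), and both features ran with the genotype difference across genes. The Pearson correlation of the Treg difference with GC content was -0.37 over 11221 genes, which share the same libraries and are not independent. After the trend on GC content was taken out of each library, Tmsb10 still differed by -2.07. Over the 795 kept genes with transcripts of at most 1000 bases, the median difference was -0.25, with quartiles of -0.61 and 0.06, and 8 of them lay below Tmsb10. Tmsb4x (768 bases) and Pfn1 (861 bases) are also among these 795 genes, whose median in Tconv was -0.14. The part of transcript length and GC content in the differences of these genes was not otherwise tested. The 7 kept genes within 500 kb on either side of Tmsb10, Capg among them, had differences from -0.33 for Capg to 0.20 for Tgoln1. Of the 7, 0 passed the limma test, beside 21.5% of all genes, so nothing is read from that count.

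The 5 genes whose log2 levels followed Tmsb10 most closely over the 15 libraries were Rps19 (Pearson r = 0.975), Rps13 (0.975), Atp5l (0.974), Cfl1 (0.972) and Rpl13 (0.970). Rps19, Rps13 and Rpl13 encode ribosomal proteins, Atp5l a subunit of the mitochondrial ATP synthase, and Cfl1 is cofilin. The points share groups, depth and sequencing libraries, so the correlations are descriptions. Apart from Cfl1, these transcripts are short as well, between 544 and 780 bases.

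Actb and Actg1 encode the cytoplasmic beta and gamma actins, the building blocks of the filaments. Actb (ENSMUSG00000029580.14, chromosome 5, 142903115 to 142906754, minus strand) stood at 27351, 24230, 28549 and 26564 in Treg WT and at 23790, 31325, 16196 and 23593 in Treg KO. The KO libraries enclosed the WT range on both sides, with the highest in the second and the lowest in the third library. The difference was -0.20 ± 0.16, and -0.03 without the third Treg KO library, the shallowest of the series. In Tconv, Actb ranged from 26638 to 30267 in WT and from 20628 to 27389 in KO, overlapping through the second KO library alone, with a difference of -0.34 ± 0.17.

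Actg1 (ENSMUSG00000062825.15, chromosome 11, 120345690 to 120348542, minus strand) had the smallest genotype difference of the 10 in Treg. In Treg its mean was 8494 ± 301 in WT and 8295 ± 713 in KO, and in Tconv 9834 ± 319 in WT and 9181 ± 250 in KO. The genotype differences were -0.04 ± 0.07 in Treg and -0.10 ± 0.08 in Tconv, both with overlapping groups. Per length, Actg1 reached 33.6% ± 3.24 of the Actb level in Treg WT and 38.1% ± 7.09 in Treg KO. In Tconv it reached 36.1% ± 2.56 in WT and 42.7% ± 4.20 in KO.

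Actin genes are textbook targets of serum response factor, which binds the CArG box, a run of A and T bases between CC and GG. A window of the Actg1 promoter holds 1 such box, 90 to 81 bases before the start of the RefSeq transcript. That start differs from the edge of the gene given above. The stretch at chr11:120348566-120348595 of the GRCm38.p6 assembly (minus strand) is shown with the box in capitals.
Actg1: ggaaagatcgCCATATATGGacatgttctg
The window searched runs from 250 bases before to 50 bases after the start, on both strands. The box was found in 1 of the 9 genes with a promoter entry, which have 12 promoters in all, and in 535 of 32851 mouse promoters (1.63%). Actb had no entry. A match is a description of these letters only.

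Pfn1 (ENSMUSG00000018293.4, chromosome 11, 70651850 to 70654644, minus strand) encodes profilin 1, which loads actin monomers for assembly at filament ends. It was at 6807, 6300, 5779 and 6941 in Treg WT and at 4061, 4588, 3508 and 4045 in Treg KO. All KO libraries lay below all WT libraries, at 1.59-fold lower on average (-0.68 ± 0.08). In Tconv the KO libraries, at 5440, 5187, 5552 and 5606, lay below the WT libraries at 6286, 6510 and 6847, with a smaller difference of -0.27 ± 0.09.

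Cfl1 (ENSMUSG00000056201.8, chromosome 19, 5490455 to 5495201, plus strand), the gene of the filament-severing protein cofilin 1, followed the same order. Treg WT libraries stood at 5100, 4752, 5068 and 5270 and Treg KO libraries at 3415, 3884, 2965 and 3592. The groups were apart by -0.55 ± 0.08, and by -0.56 with the GC trend removed. In Tconv the difference was -0.19 ± 0.08, with KO between 4445 and 5147 and WT between 5299 and 5592. For both Pfn1 and Cfl1 the groups did not overlap in either cell type.

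Coro1a (ENSMUSG00000030707.15, chromosome 7, 126699773 to 126707787, minus strand) encodes coronin 1A, a leukocyte protein that binds filaments and the Arp2/3 complex. It was at 11914, 10305, 9986 and 12239 in Treg WT and at 7712, 8631, 5425 and 8406 in Treg KO. The groups were separate, by -0.58 ± 0.13. This gene has the highest GC content of the 10 (58.6%), and the difference was -0.25 once the GC trend was removed. In Tconv the ranges of 10838 to 12049 in WT and 9072 to 11911 in KO overlapped (-0.16 ± 0.14).

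Arpc1b (ENSMUSG00000029622.16, chromosome 5, 145114215 to 145130705, plus strand) encodes a subunit of the Arp2/3 complex that is used in blood cells. It was at 1859, 1628, 1848 and 1942 in Treg WT and at 1764, 1743, 862 and 1547 in Treg KO. The third KO library alone was far below the rest, and the groups overlapped. The difference was -0.35 ± 0.17 with that library and -0.11 without it. In Tconv, KO libraries ranged from 1945 to 2253, all below the WT range of 2443 to 2714, with a difference of -0.26 ± 0.18.

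The last pair differed more by cell type than by genotype. Actn1, whose product alpha-actinin 1 crosslinks filaments, was lower in Treg, and Capg, a capping protein of the gelsolin family, was higher in Treg. Actn1 stood at 1676, 1343, 1776 and 1673 in Treg WT against 3624, 3036 and 3338 in Tconv WT. Actn1 (ENSMUSG00000015143.15) lies on chromosome 12 from 80167547 to 80260371, and Capg (ENSMUSG00000056737.14) on chromosome 6 from 72544391 to 72562983. The Actn1 ranges were well apart, at 2.06-fold (-1.05 ± 0.27). Capg stood at 1508, 1468, 1607 and 1577 in Treg WT against 334, 346 and 392 in Tconv WT, 4.31-fold higher in Treg (2.11 ± 0.20) and again without overlap.

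In the KO animals these genes spread much more. Actn1 was at 701, 1297, 1295 and 1622 in Treg KO and at 1765, 2787, 3718 and 4075 in Tconv KO. Capg was at 1721, 1404, 922 and 995 in Treg KO and at 505, 378, 359 and 262 in Tconv KO. In both cell types the first KO library had the lowest Actn1 and the highest Capg. The Treg minus Tconv difference in KO was -1.32 ± 0.25 for Actn1 and 1.73 ± 0.19 for Capg, and without the first Tconv KO library, which stood apart in other genes too, it was -1.57 and 1.89. The genotype differences had wide errors. For Actn1 they were -0.45 ± 0.25 in Treg and -0.18 ± 0.27 in Tconv, and the latter was 0.07 without the first Tconv KO library. For Capg they were -0.33 ± 0.19 in Treg, which became -0.08 with the GC trend removed, and 0.04 ± 0.20 in Tconv.

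**Figure D2:**
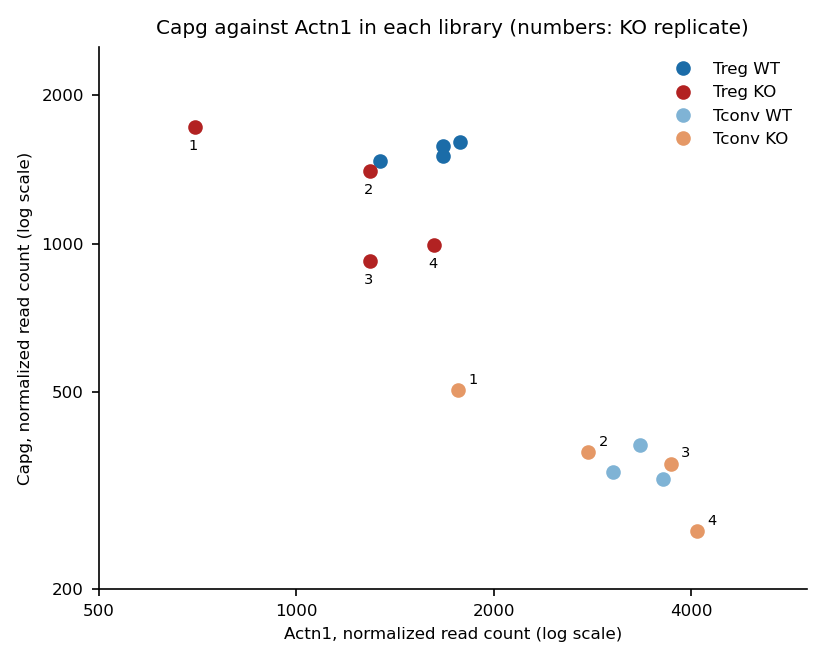
Capg against Actn1 in each of the 15 libraries, both as normalized read counts on log axes, coloured by group and with the replicate number beside KO libraries. All Treg libraries lie above all Tconv libraries and, apart from Tconv KO 1, to their left, and in both cell types KO replicate 1 has the lowest Actn1 (701 and 1765) and the highest Capg (1721 and 505).

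Counted over the 10 genes, 5 were lower in every Treg KO library than in any Treg WT library (Tmsb10, Tmsb4x, Pfn1, Cfl1 and Coro1a) and 0 were higher. Of all 11314 genes, 26.2% did not overlap in one direction or the other. Without the third Treg KO library the count was still 5. The median difference of the 10 genes was -0.40, beside -0.00031 over all genes. In Tconv, Tmsb10, Pfn1, Cfl1 and Arpc1b were lower without overlap (4 of 10, beside 16.3% of all genes in either direction), and the median of the 10 was -0.19. Nothing is read from these counts, since the genes were chosen with such differences known. Together the 10 genes took 1.41% ± 0.07 of all reads in Treg WT against 1.13% ± 0.16 in Treg KO, and 1.48% ± 0.04 in Tconv WT against 1.31% ± 0.08 in Tconv KO. In bulk RNA, fewer cells with a transcript and less of it per cell cannot be told apart.

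**Figure D3:**
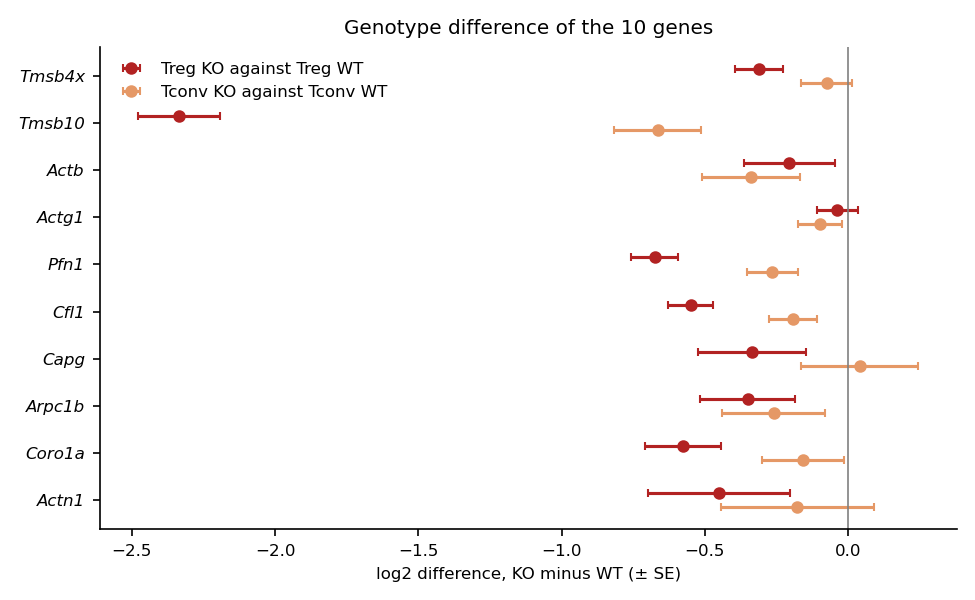
Log2 difference between KO and WT (points, with SE as bars) of the 10 genes in Treg and in Tconv. Tmsb10 lies at -2.34 in Treg and -0.66 in Tconv, and the other genes lie between -0.68 and 0.04.

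Between cell types, Actg1, Cfl1, Arpc1b and Actn1 were lower in every Treg WT library than in any Tconv WT library and Capg was higher, 5 of 10 beside 41.1% of all genes in either direction. Between Treg KO and Tconv KO, 8 of the 10 were lower without overlap, Capg was higher and Actb overlapped (9 of 10, beside 24.1% of all genes in either direction). These comparisons share their samples with the genotype comparisons. Arpc1b had similar Treg minus Tconv differences in both genotypes, -0.50 ± 0.18 in WT and -0.59 ± 0.17 in KO, the latter -0.35 without the third Treg KO library. For Pfn1 the values were -0.02 ± 0.09 in WT and -0.43 ± 0.08 in KO, and for Cfl1 -0.11 ± 0.08 and -0.47 ± 0.08.

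Per length, taken from 1 annotated transcript a gene, Tmsb4x was the most abundant of the 10 transcripts in Treg WT, at 21439 normalized counts per kb, followed by Actb at 13893. Their ranges were apart in Treg WT and overlapped in Treg KO. Pfn1 (7499 per kb) and Coro1a (6693 per kb) came next in Treg WT with overlapping ranges, then Actg1 (4649 per kb) and Tmsb10 (4271 per kb), also overlapping. Tmsb10 was in place 6 of the 10 in Treg WT, Tconv WT and Tconv KO. In Treg KO it was in place 8, at 849 per kb, with a range of 673 to 941 that overlapped that of Capg (739 to 1380 per kb).

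To set these genes beside the rest of the system, 108 other actin cytoskeleton genes were listed by role. Of these, 106 were in the table and 100 passed the filter on low values. This list was also chosen with earlier results of these data known, so its calls and shares are no independent test. In Treg KO against Treg WT, 10 of the 100 rose and 16 fell at a limma adjusted p under 0.05, and 74 did not pass. That is 26% called, beside 21.5% of all genes in that comparison, with a median difference of 0.01 beside -0.00031. Without the first Treg WT library 16 were called. Of the 26 calls, 13 held under all 23 alternatives run and 13 ended under at least 1, 11 of them with the GC trend removed. The list as a whole therefore did not have the downward median of the 10 genes.

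Among the bundling, crosslinking and side-binding proteins 3 of 12 rose and 1 fell. Iqgap1, a scaffold at the cell cortex, rose by 0.47 ± 0.07 to 4104 ± 117 (n = 4 in each group, adjusted p = 0.00039). Lcp1, the leukocyte bundling protein L-plastin, rose by 0.36 ± 0.08 to 9685 ± 584 (adjusted p = 0.0075). Both were above WT in each of the 4 KO libraries. Tagln2, a calponin-family protein that binds filaments, was at 918, 828, 746 and 1028 in Treg WT and at 1339, 1131, 985 and 1216 in Treg KO. The groups overlapped, and it rose by 0.41 ± 0.11 (adjusted p = 0.019). That call ended without the second (0.052) or the third (0.060) Treg WT library or the first Treg KO library (0.051).

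Myosins, tropomyosins and myosin kinases went both ways, with 3 of 13 higher (Rock2, Rock1 and Myo1f) and 1 lower. The Myo1f call ended under 14 of the 23 alternatives. That of Rock1 ended under 4, the GC trend removed among them (adjusted p = 0.077). Myl6, a light chain of nonmuscle myosin, was at 1416, 1319, 1300 and 1411 in Treg WT and at 743, 744, 694 and 718 in Treg KO. It fell by 0.91 ± 0.08 (adjusted p = 7.2e-06), the smallest p of the list. Its transcript is shorter than 1000 bases, and genes with transcripts of at most 1000 bases had a median difference of -0.25 here. The part of transcript length in the fall of Myl6 was not tested. Rock2, a kinase that activates myosin, rose by 0.42 ± 0.09 (adjusted p = 0.0057). After removal of the GC trend its adjusted p was 0.052.

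The Arp2/3 complex, the branching machine to which Arpc1b belongs, had 1 of 8 other members higher and 1 lower. Arpc3 rose from 865 ± 33.0 to 1080 ± 70.3 (0.32 ± 0.06, adjusted p = 0.0022), and Actr3 fell from 3343 ± 106 to 2598 ± 101 (-0.36 ± 0.06, adjusted p = 0.00085; -0.58 with the GC trend removed). The remaining 6 did not pass. Of 19 activators of the complex and their regulators, Dock2 and Cdc42 rose and Rhoh, Dbnl, Brk1, Was and Vav1 fell. With the GC trend removed Cdc42 (adjusted p = 0.85), Was (0.96, with its direction turned) and Vav1 (0.35) did not pass. Dock2, an activator of the GTPase Rac, rose by 0.27 ± 0.07 to 6973 ± 297 (adjusted p = 0.011). Rhoh, a GTPase of blood cells, fell by 0.47 ± 0.08 to 1264 ± 134 (adjusted p = 0.0018), and Dbnl, which encodes the filament-binding adaptor drebrin-like protein, fell by 0.62 ± 0.11 to 806 ± 163 (adjusted p = 0.0023; -0.40 with the GC trend removed).

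Of 10 formins and Ena/VASP proteins, which elongate unbranched filaments, 0 rose and 3 fell, namely Fhod1, Vasp and Evl. Fhod1 fell from 485 ± 18.5 to 316 ± 46.7 (-0.63 ± 0.10, adjusted p = 0.00073). Vasp fell from 2453 ± 104 to 1747 ± 256 (-0.50 ± 0.09, adjusted p = 0.0018). With the GC trend removed the differences were smaller, -0.31 for Fhod1 (adjusted p = 0.014) and -0.20 for Vasp (0.025), and Evl did not pass (0.56). Of 16 genes of monomer binding and filament turnover, the group closest in role to Pfn1, Cfl1 and the thymosins, Cap1 rose, Twf2 and Cotl1 fell and 13 did not pass. The call of Cap1 ended under 16 of the 23 alternatives, edgeR among them, and that of Cotl1 under 10. Among 8 capping and severing genes Rltpr fell, among 8 membrane and adhesion linkers Parvg fell, and of serum response factor and its 2 cofactors Mkl1 fell. The Rltpr call held under all 23 alternatives, at -0.32 with the GC trend removed against -0.71. The Parvg call ended under 16 of them and the Mkl1 call under 7. None of the 3 other actins and thymosins that could be tested passed.

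**Figure D4:**
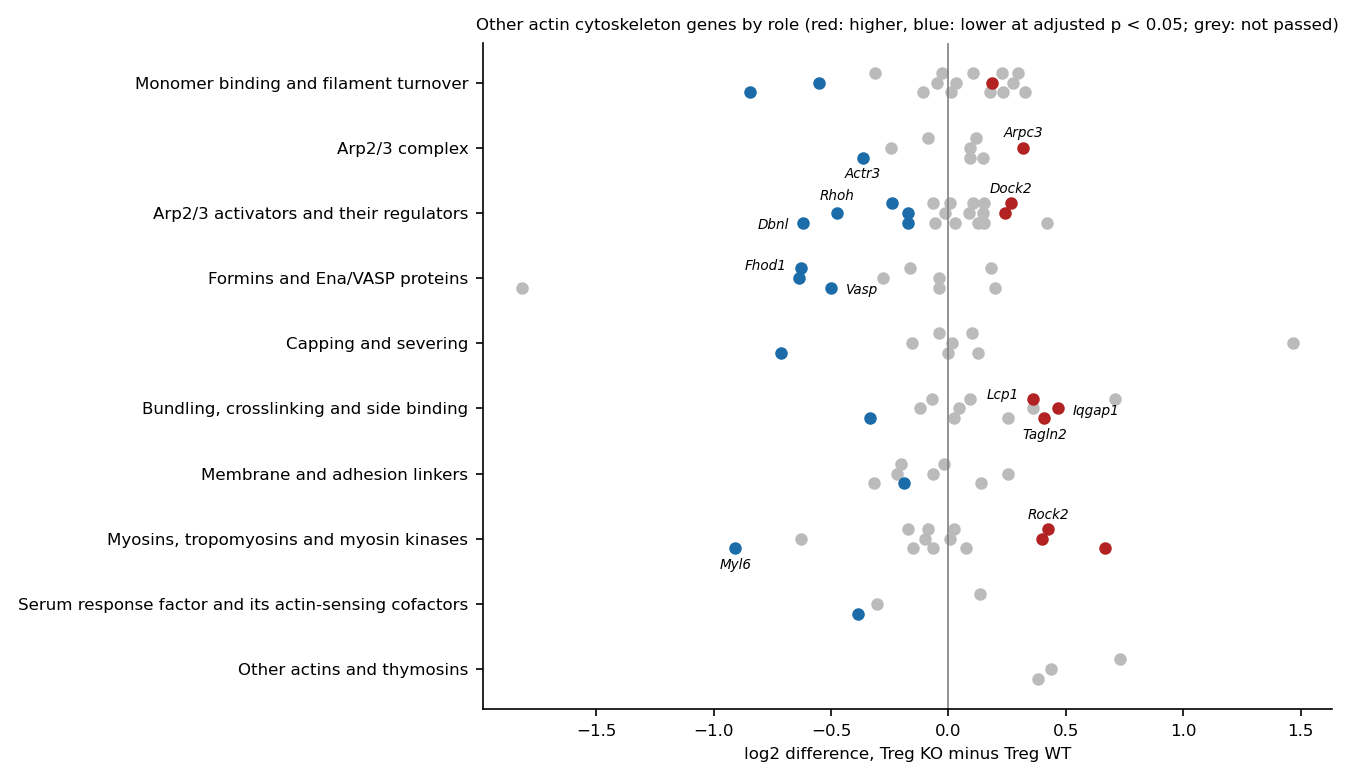
Log2 difference between Treg KO and Treg WT of the 100 other actin cytoskeleton genes that were tested, 1 point a gene, in rows by role. Red points rose (10) and blue points fell (16) at a limma adjusted p under 0.05, and grey points (74) did not pass.

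In Tconv KO against Tconv WT, 1 of the 100 was called (1%, beside 0.681% of all genes). Myl6 fell from 1557 ± 76.8 (n = 3) to 1112 ± 159 (n = 4), by 0.50 ± 0.09 (adjusted p = 0.018), and it had fallen in Treg as well. It did not pass when only the Tconv groups were fitted (adjusted p = 0.12). The call also ended without the first (0.15), the second (0.067) or the third (0.082) Tconv WT library or the second Tconv KO library (0.057). Genes with transcripts of at most 1000 bases, Myl6 among them, had a median difference of -0.14 in this comparison.

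Whether the genotype difference itself differed between Treg and Tconv was tested with an interaction term. By limma 0 of the 100 list genes passed, beside 17 of all genes (0.150%), and 15 had an unadjusted p under 0.05. By edgeR on the whole reads 0 passed as well, and by DESeq2 Arpc3 alone. For Myl6 the interaction was -0.41 ± 0.12 (adjusted p = 0.32), and for Arpc3 it was 0.31 ± 0.08 (adjusted p = 0.26).

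Between Treg WT and Tconv WT, 8 list genes were higher in Treg and 15 lower (23%, beside 18.1% of all genes). The count was 15 without the first Tconv WT library, 37 without the third Treg KO library and 47 when only these groups were fitted. Between Treg KO and Tconv KO, 12 were higher and 23 lower (35%, beside 31.4%), with 20 called when only these groups were fitted. Swap70, a filament-binding protein first known from B cells, had the largest difference of the list in WT. Its mean was 524 ± 46.1 in Treg WT against 35.2 ± 4.20 in Tconv WT (3.86 ± 0.15, adjusted p = 2.2e-10), and 625 ± 65.5 in Treg KO and 44.7 ± 10.4 in Tconv KO (3.80 ± 0.14, adjusted p = 1.4e-10). The 6 B cell markers summed to 76.2 to 172 in Treg and to 7.91 to 22.7 in Tconv, with Cd79b at 72.1 to 166 in Treg, and their part in the level of Swap70 was not tested.

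Coro2a, a coronin related to Coro1a, was 1838 ± 246 in Treg WT and 292 ± 67.2 in Tconv WT (2.66 ± 0.22, adjusted p = 6e-07), and the difference was 2.28 ± 0.21 in KO (adjusted p = 1.1e-06). Coro1a itself had overlapping groups in WT, at -0.06 ± 0.14. Actg2, the smooth muscle gamma actin, was low but higher in Treg, at 45.1 ± 5.86 against 12.9 ± 0.70 in WT (1.72 ± 0.39, adjusted p = 0.0056). Rhoh was higher in Treg WT as well (0.70 ± 0.09, adjusted p = 4.8e-05).

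Like Actn1, several crosslinkers and filament regulators were lower in Treg. Flna, filamin A, had a mean of 7421 ± 514 in Treg WT against 13223 ± 1093 in Tconv WT (-0.83 ± 0.08, adjusted p = 3.9e-06), with nearly the same difference in KO (-0.80 ± 0.08, adjusted p = 1.9e-06). Gmfg, which removes Arp2/3 branches, differed by -1.26 ± 0.13 in WT (adjusted p = 5e-06) and the formin Daam1 by -1.05 ± 0.17 (adjusted p = 0.00028). Tagln2 differed by -0.97 ± 0.12 (adjusted p = 3.8e-05). In KO, Actr3 (-0.41 ± 0.06, adjusted p = 5.8e-05) and Myl6 (-0.61 ± 0.08, adjusted p = 6.4e-05) were also lower in Treg, and Hcls1, a cortactin relative of blood cells, was higher (0.34 ± 0.06, adjusted p = 0.00035).

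**Figure D5:**
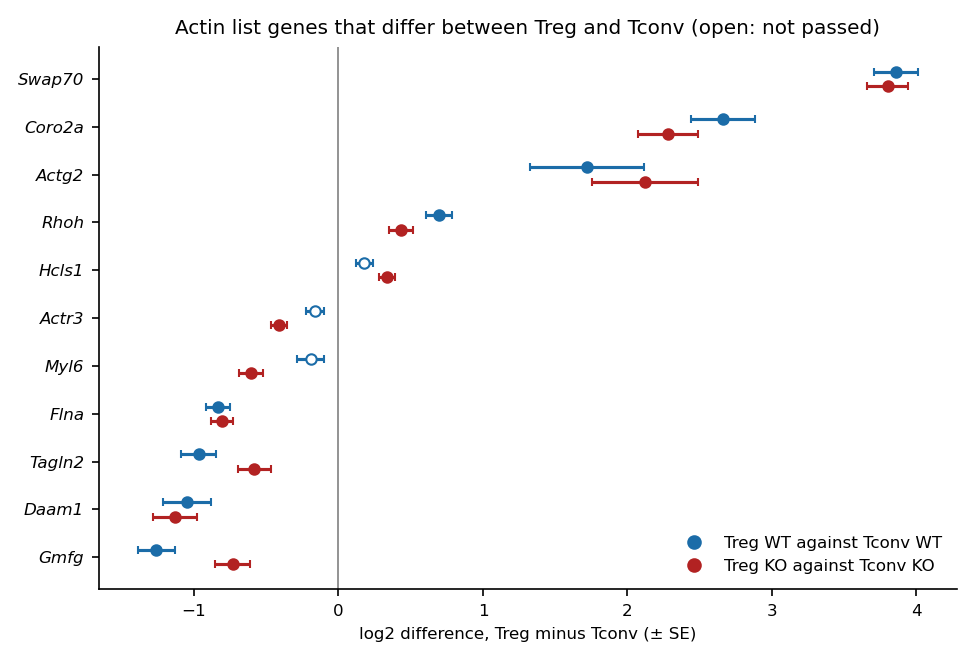
Log2 difference between Treg and Tconv (points, with SE as bars) of 11 actin cytoskeleton genes, in WT and in KO animals; open points did not pass at a limma adjusted p under 0.05. Swap70 lies near 3.8 in both genotypes, and Flna, Tagln2, Daam1 and Gmfg lie below 0 in both.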

How the data were processed

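Per the labels' protocols, total RNA of sorted spleen cells (10 ng a library) went into Illumina TruSeq libraries. The submitters' processing notes name TopHat and the mm10 build. The sources used here do not give versions, gene annotation or read counting. Deposited values are a normalized signal, gene counts divided by 1 scaling factor per library by the authors, as the steps in each column show. Whole reads were recovered for 100% of values (tolerance 0.001).

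A gene was kept if 3 or more libraries reached 10 (11314 genes). limma 3.58.1 in R 4.3.3 was fitted to log2(value + 1) with 4 group means over 15 libraries, a trended prior and two-sided tests, with Benjamini-Hochberg adjustment over all genes within each of 5 comparisons and a threshold of 0.05. p-values measure the spread between these samples, for which the labels do not name separate animals. The method was also run on simulated counts, drawn for each gene from its mean over all libraries. These counts held no GC trend and no difference between cell types, so nothing is read from that run for these data. edgeR 4.0.16 and DESeq2 1.42.0 were run on the whole reads, and called 2444 and 2779 genes in Treg KO against WT, where limma called 2431.

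The 10 genes and the actin list were chosen with earlier results of these data known. 1 gene first placed on the actin list is not reported here and was left out of the list's counts and plots after the fit, which still includes it. Named list genes are up to 6 with the smallest p in each direction for genotype, up to 4 for cell type and up to 3 for the interaction. Cell markers (Treg, CD4 T, B, CD8 T and NK, myeloid, erythroid and platelet) served as checks: the Treg markers summed to 16547 to 23668 in Treg and 640 to 4062 in Tconv, CD4 T markers to at least 9932 in every library, CD8 T and NK markers to 151 to 261 in Treg and 472 to 1765 in Tconv, and erythroid and platelet markers to at most 6.69. Positions, lengths and GC contents are from GENCODE vM21 (GRCm38), 1 transcript a gene. Plots used Python 3.11.15 with matplotlib 3.10.9.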

Additional observations from a re-analysis of the deposited data

Results flagged for a closer look

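The change of Tmsb10 between genotypes differed between the cell types by -1.67 on the log2 scale. The gene was chosen with that difference known, so the value is a description and not a test.

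Among 87 groups of 4 libraries checked, 3 held a library whose gap to the nearest of the other 3, as a share of the group's range, was past Dixon's limit for 4 values, and chance gives about 1 in 20. Dock2 was 7418 in the third Treg KO library against 6803 to 6839 in the others. Flna was 8184 in the first Treg WT library against 7075 to 7251, and Hcls1 was 2202 in the third Treg WT library against 1961 to 1995. None of the 10 genes passed that limit in any group of 4.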

How the results depend on the processing

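Besides leaving out each library, 8 alternatives were run: edgeR, DESeq2, a pseudocount of 8, no filter, a mean of at least 50, TMM scaling, only the groups compared, and the GC trend removed. The number of list genes called in Treg KO against WT ran from 16 to 28 when a library was left out, the lowest without the first Treg WT library; with the GC trend removed it was 23, of which 15 were among the 26. In Tconv KO against WT it was 0 with only the groups compared, 2 with the GC trend removed and 0 to 3 when a library was left out (3 without the third Treg KO library). In Treg WT against Tconv WT it was 35 with DESeq2, 47 with only the groups compared, and 15 to 37 with a library left out. In Treg KO against Tconv KO it was 20 with only the groups compared and 30 to 40 with a library left out. The interaction gave 1 with DESeq2 and 0 to 0 with a library left out. The cause of these shifts was not tested.

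Of 1140 values of the 10 genes under alternatives, 1133 moved by less than 1 SD and 7 by more, 4 of them with the GC trend removed (Tmsb10 -2.07, Tmsb4x -0.47, Pfn1 -0.52 and Coro1a -0.25) and 3 for Arpc1b without the third Treg KO library. Chosen after seeing the data, the count of the 10 genes without overlap was taken without the first or the third Treg KO or the first Tconv KO library: it stayed at 5 or became 6 in Treg and stayed at 4 in Tconv. Of 665 values of named list genes, 656 kept direction and call. No paired analysis was run, because the labels give no replicate number shared between groups. Sample numbers of Tconv and Treg are adjacent (574 and 575, for example), but the labels do not say whether neighbours share an animal, and no fit used this order. Treg KO had the lowest depth, and 178 reads was the lowest count of any of the 10 genes in a library.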
